A study of Mus musculus with 6 samples.

Results

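The 10 genes described here are interferon-inducible GTPases of mouse: the guanylate-binding proteins Gbp2, Gbp2b, Gbp3, Gbp4, Gbp6, Gbp7 and Gbp9, and the immunity-related GTPases Igtp, Irgm1 and Irgm2. They were taken by gene name from the authors' deposited table of 17110 genes, and all 10 also had a gene ID in the deposited count table. They were picked because of how they stand in that same table, so their own fold changes are given as a description, with no test. The cells were mouse embryonic stem cells of the line TG2A, kept in serum with leukemia inhibitory factor. Both groups carried a fluorescent reporter under MERVL, an endogenous retrovirus known for its activity in two-cell embryos, and were separated by cell sorting into DsRed2+ and DsRed2- cells, with 3 samples in each group taken on different dates. Messenger RNA was captured with oligo(dT) and sequenced.

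The table gives 1 fold change per gene and does not say which sorted group it divides by. That group is called the reference group below, and a negative log2 fold change means less RNA in the group set against it. The 6 columns of the count table match no sample label, so values per sample and library depth are unknown here. In sorted bulk samples, fewer cells making a transcript and less transcript per cell cannot be told apart.

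Guanylate-binding proteins (GBPs) are large GTPases of the dynamin superfamily that coat the vacuoles of intracellular parasites and the surface of some bacteria. Immunity-related GTPases (IRGs) fall into effectors, which load onto such vacuoles and break them, and regulators of the IRGM class, which stay on the cell's own membranes and hold the effectors inactive. Both families are classic targets of interferon gamma: their promoters can hold gamma-activated sites (GAS) and interferon-stimulated response elements (ISRE), and Irf1, itself induced, binds the latter. Pluripotent stem cells are known for a weak interferon response. Irgm1, Irgm2 and Igtp, also named Irgm3, are the 3 mouse regulators.

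The promoters are shown first, and 7 of the 7 genes with a promoter in the RefSeq table (GRCm38.p6) hold an ISRE core. Promoter sequence was not itself used to choose the genes, but they were grouped as interferon-inducible families, whose promoters can hold such sites. Some are also neighbours with shared promoter sequence, so the 7 are not independent findings and nothing is read from their count. Gbp3 has a second listed promoter, with 0 ISRE and 0 GAS cores, so its core is in 1 of 2. The window ran from 250 bases before to 50 after the transcription start, and the core searched was GAAA, any 2 bases and GAAA, on either strand (TTTC, any 2 bases and TTTC when read on the other one). Of the 11507 genes of the deposited table with a promoter of the same length, 390 (3.39%) hold it. The GAS core, TTCNNNGAA, was found in 3 of the 7, Gbp7, Igtp and Irgm2, against 7.97% of genes. Both cores together were found in 3 of the 7 and in 0.495% of genes. No ISRE core overlaps a GAS core in these 7 promoters. The stretches below end at the base before the promoter's start, or, in Gbp3 and Gbp2b, 28 and 31 bases earlier, where the RefSeq gene record begins. They are written 5′ to 3′ on the gene's strand, with ISRE and GAS cores in capitals. The first 4 are GBP genes of chromosome 3 and the next 3 are the IRGM regulators of chromosome 11.
Gbp7, chr3:142530186-142530335, plus strand: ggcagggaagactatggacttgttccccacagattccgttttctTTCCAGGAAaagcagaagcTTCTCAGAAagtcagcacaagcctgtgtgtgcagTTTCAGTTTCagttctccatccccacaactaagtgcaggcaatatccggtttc
Gbp3, chr3:142559894-142560015, plus strand: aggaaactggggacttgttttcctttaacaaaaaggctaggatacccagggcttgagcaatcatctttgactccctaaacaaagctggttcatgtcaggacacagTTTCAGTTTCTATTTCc
Gbp2b, chr3:142594697-142594815, plus strand: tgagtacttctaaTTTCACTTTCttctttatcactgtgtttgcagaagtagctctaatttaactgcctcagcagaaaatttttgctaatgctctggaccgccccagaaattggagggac
Gbp2, chr3:142620513-142620662, plus strand: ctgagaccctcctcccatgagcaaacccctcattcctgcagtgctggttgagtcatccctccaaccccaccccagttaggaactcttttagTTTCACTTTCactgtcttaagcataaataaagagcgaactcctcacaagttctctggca
Irgm1, chr11:48871421-48871570, minus strand: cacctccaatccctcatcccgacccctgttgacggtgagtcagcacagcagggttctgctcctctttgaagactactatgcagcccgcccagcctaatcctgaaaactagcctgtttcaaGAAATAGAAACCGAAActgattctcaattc
Igtp, chr11:58199406-58199555, plus strand: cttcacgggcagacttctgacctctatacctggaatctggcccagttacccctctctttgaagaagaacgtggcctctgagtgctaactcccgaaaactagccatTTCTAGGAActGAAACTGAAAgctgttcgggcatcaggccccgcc
Irgm2, chr11:58214827-58214976, plus strand: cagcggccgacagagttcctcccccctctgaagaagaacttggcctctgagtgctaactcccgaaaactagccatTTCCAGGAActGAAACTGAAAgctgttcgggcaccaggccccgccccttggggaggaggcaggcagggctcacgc

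The cores lie close to the start. Distances are counted from the promoter's start, also for the shortened Gbp3 and Gbp2b stretches. The first base of the ISRE core lies 53 bases before the start in Gbp7, 59 in Gbp2 and 137 in Gbp2b. Gbp3 has 2 overlapping ISRE cores, at 45 and 39 bases before the start, and Irgm1 has 2 at 30 and 24. All 4 GBP promoters carry the core in the reverse orientation and all 3 IRGM promoters in the forward one. In Igtp and Irgm2 a GAS core ends 2 bases before the ISRE core, and these neighbouring genes share an unbroken run of 38 bases, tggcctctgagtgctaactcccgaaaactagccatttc, that reaches into the GAS core. A longer form, the same core followed by CT, is contained in the ISRE core matches and was found in 4 of the 7 (Gbp7, Gbp3, Gbp2 and Irgm1) and in 0.287% of genes. A match describes letters in a window, not a bound site. Gbp4, Gbp6 and Gbp9 are named here without a promoter.

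**Figure D1:**
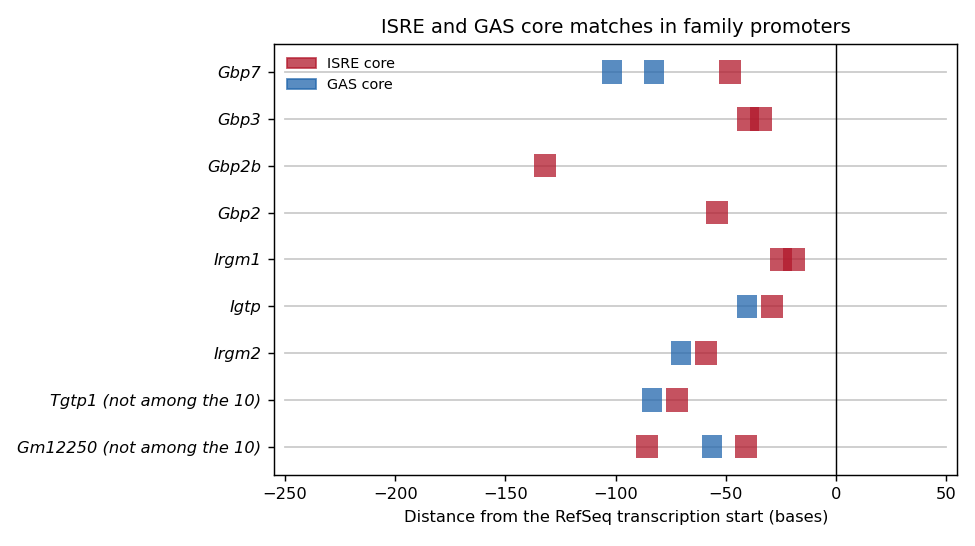
Position of ISRE core matches (red) and GAS core matches (blue) along 9 family promoters, in bases from the RefSeq transcription start, for 7 of the 10 genes and for Tgtp1 and Gm12250. The ISRE cores of the 7 genes begin between 137 and 24 bases before the start, and a GAS core directly precedes the ISRE core in Igtp, Irgm2 and Tgtp1.

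All 10 genes had a negative log2 fold change in the authors' deposited table, from -7.04 in Gbp7 to -1.82 in Igtp, with a median of -4.07 against 0.0097 over all genes. By the authors' deposited table all 10 were called, meaning an adjusted p-value under 0.05. Over all genes 15.9% were called negative and 30.5% were called in either direction. Since the 10 genes were picked on this comparison, nothing is read from their count. The share of all genes called positive was 14.6%. All 10 also carried the authors' own call of down in the authors' deposited table, a call given to 12.1% of genes against 9.40% for up. All 10 were below -1 as well, where 7.69% of genes were called. Summed over the 10 genes, the deposited mean normalized counts (counts divided by library size factors, averaged over all libraries) came to 3697. A mean and a fold change together give the level in each group if both groups have equal size, and the sums implied in this way were 7155 in the reference group and 239.0 in the other group.

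The most negative values among the 10 genes belonged to the 4 GBP genes on chromosome 3. Their log2 fold changes in the authors' deposited table lay within 0.61 of each other, although their mean normalized counts differed up to 10.9 times. Gbp2 (ENSMUSG00000028270), which coats parasite vacuoles and bacteria, had a mean normalized count of 1228 and a log2 fold change of -6.43 ± 0.56 (SE) in the authors' deposited table. The implied mean counts of Gbp2 were 2428 in the reference group and 28.2 in the other. Gbp2b (ENSMUSG00000040264), the gene formerly called Gbp1, had a mean normalized count of 1127 and a log2 fold change of -6.92 ± 0.65 (SE) in the authors' deposited table. These are the highest levels of the 10 genes, and in both the RNA was nearly all in the reference group.

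Gbp3 (ENSMUSG00000028268), which acts with its chromosome 3 neighbours in the caspase-11 response to bacteria, had a mean normalized count of 254.3 and a log2 fold change of -6.47 ± 0.88 (SE) in the authors' deposited table. Gbp7 (ENSMUSG00000040253), which helps to recruit the oxidase that makes reactive oxygen at vacuoles, had a mean normalized count of 112.5 and a log2 fold change of -7.04 ± 0.81 (SE) in the authors' deposited table. The implied mean of Gbp7 in the lower group was only 1.70 normalized counts, so the size of its fold change rests on a few reads. Among all 17110 genes these 4 held places 8, 11, 28 and 31 counted from the most negative fold change.

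The 3 GBP genes on chromosome 5 had smaller fold changes than those on chromosome 3. The mean count of Gbp4 was close to that of Gbp7 on chromosome 3 (112.5), and those of Gbp9 and Gbp6 were lower. Gbp4 (ENSMUSG00000079363) had a mean normalized count of 118.8 and a log2 fold change of -2.63 ± 0.48 (SE) in the authors' deposited table. Gbp9 (ENSMUSG00000029298) had a mean normalized count of 33.8 and a log2 fold change of -1.85 ± 0.52 (SE) in the authors' deposited table. Both kept readable levels in the lower group, with implied means of 33.1 and 14.7. Gbp6 (ENSMUSG00000104713) was nearest to the count floor of the 10 genes, with a mean normalized count of 8.10 and a log2 fold change of -3.92 ± 1.18 (SE) in the authors' deposited table.

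Among the IRGM regulators, Irgm1 (ENSMUSG00000046879), which acts on the Golgi and mitochondria and is needed for resistance to mycobacteria, had the largest difference. Its mean normalized count was 652.2 and its log2 fold change -4.22 ± 0.65 (SE) in the authors' deposited table, which implies means of 1238 and 66.5. Irgm2 (ENSMUSG00000069874), which restrains the caspase-11 pathway, had a mean normalized count of 74.0 and a log2 fold change of -1.94 ± 0.34 (SE) in the authors' deposited table. Igtp (ENSMUSG00000078853), which sits on the endoplasmic reticulum and lipid droplets, had a mean normalized count of 88.5 and a log2 fold change of -1.82 ± 0.41 (SE) in the authors' deposited table. Igtp and Irgm2, which are neighbours, thus had fold changes closer to each other than to that of Irgm1.

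The 95% intervals from the deposited standard errors separate the 10 genes only in part. The interval of Gbp2 ran from -7.53 to -5.34 and that of Gbp4 from -3.58 to -1.68, so these did not overlap. The intervals of Irgm2 (-2.61 to -1.26), Gbp9 (-2.86 to -0.84) and Igtp (-2.63 to -1.01) overlapped each other almost wholly. The interval of Gbp6, -6.24 to -1.61, overlapped those of Gbp3 (-8.19 to -4.75) and of Igtp. The interval of Irgm1, -5.49 to -2.94, overlapped those of Gbp3, Gbp2, Gbp7, Gbp6 and Gbp4, and not that of Igtp. Gbp7 at -8.63 to -5.45 and Gbp2b at -8.20 to -5.65 overlapped Gbp2 and Gbp3.

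**Figure D2:**
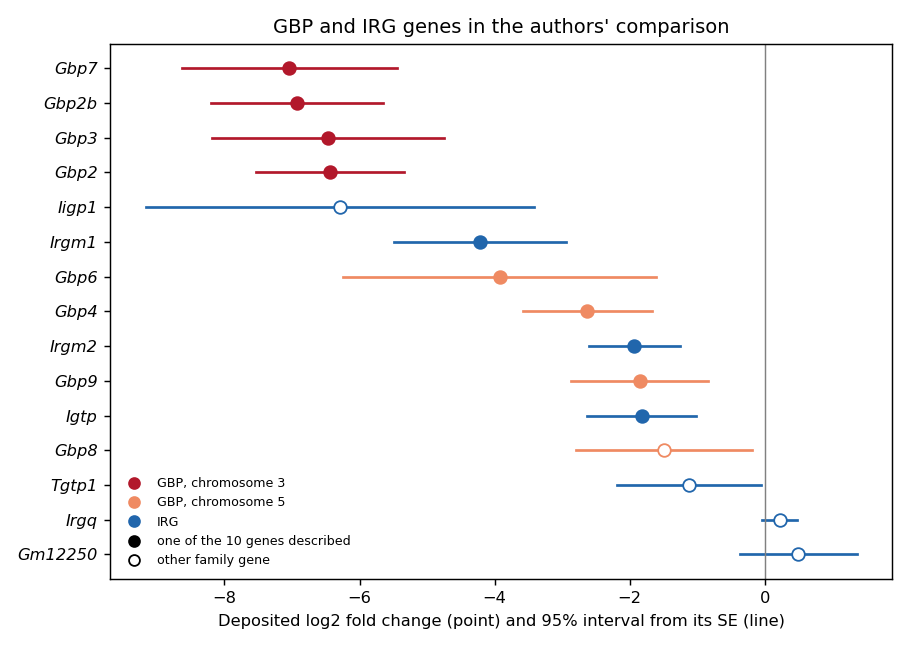
Log2 fold changes deposited by the authors (points) with 95% intervals from their standard errors (lines) for the 10 genes (filled) and 5 other GBP and IRG genes (open), coloured by family and chromosome. The chromosome 3 genes lie between -7.04 and -6.43, and Irgq and Gm12250 lie above 0.

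Per kilobase of the longest GENCODE M21 transcript, the order of implied levels in the reference group was Gbp2 (965 normalized counts per kilobase), Gbp2b (792), Irgm1 (323) and Gbp3 (188). Igtp, Gbp4, Gbp7 and Irgm2 followed between 68.3 and 33.3, then Gbp9 at 10.5 and Gbp6 at 3.58. In the other group the order of levels per kilobase was different: Igtp came first at 19.3, then Irgm1 at 17.4 and Gbp2 at 11.2. How far neighbours in these orders differ beyond the spread between samples is not known from this table.

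**Figure D3:**
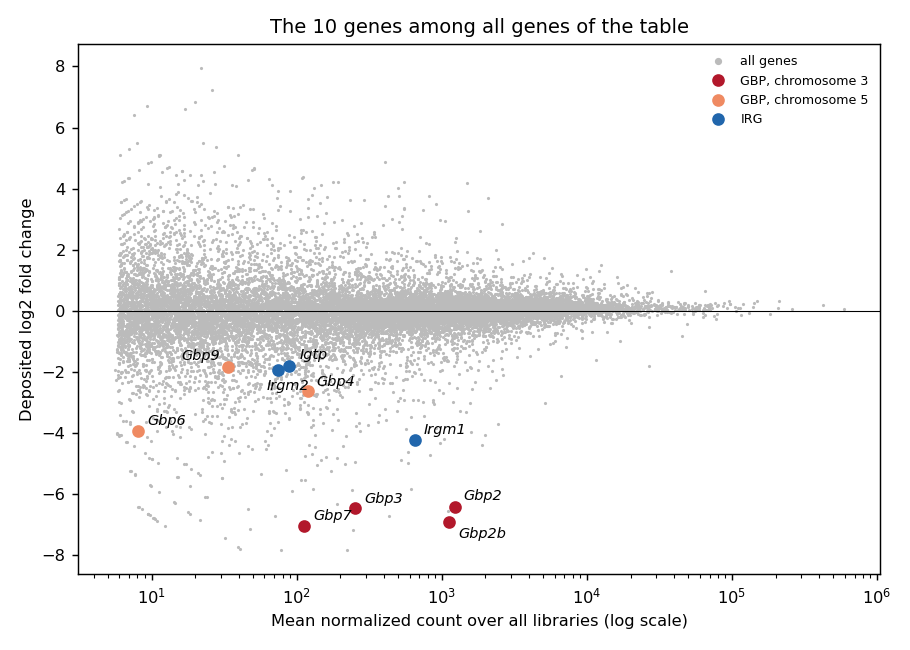
Deposited log2 fold change (vertical) against mean normalized count on a log axis (horizontal) for the 17110 genes (grey) and the 10 GBP and IRG genes (coloured). Gbp2, Gbp2b and Irgm1 lie among the most negative genes of like level, with mean counts of 1228, 1127 and 652.2.

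The standard errors of all 10 genes were above the median of genes of like level, most so in Gbp2b, at 5.29 times that median. Like level was set by the mean over both groups. The counting error of Gbp2, with its low implied mean in 1 group, was 0.16 by itself. Genes with a mean count within 2-fold of that of Gbp2 had a median standard error of 0.12, against 0.56 for Gbp2 in the authors' deposited table, and for Irgm1 the corresponding values were 0.14 and 0.65. For Irgm2 and Gbp9 the deposited error was 1.05 and 1.13 times the median of genes of like level. Against counting error alone, taken from the implied means with 3 libraries per group, the deposited error was more than 2 times as large in 8 of the 10 genes. The same held for 78.2% of all genes, so the 10 genes do not stand apart in that measure. Which libraries carry this spread was not analysed here.

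Of 19 other symbols of the GBP and IRG families, 5 had a row, and 1 of these was called in the authors' deposited table. Iigp1 (ENSMUSG00000054072), an effector IRG that disrupts parasite vacuoles, had a mean normalized count of 14.4 and a log2 fold change of -6.29 ± 1.47 (SE) (DESeq2 adjusted p-value 0.000136 in the authors' deposited table). Gbp8, a chromosome 5 neighbour of Gbp9, stood at -1.49 ± 0.67 (SE) (DESeq2 adjusted p-value 0.0759) in the authors' deposited table. The effector Tgtp1 stood at -1.12 ± 0.54 (SE) (DESeq2 adjusted p-value 0.108), and the divergent family member Irgq at 0.22 ± 0.13 (SE) (DESeq2 adjusted p-value 0.223) in the authors' deposited table. Gm12250, the effector also named Irgb10 and listed by GENCODE M21 as a processed pseudogene, stood at 0.50 ± 0.44 (SE) (DESeq2 adjusted p-value 0.44) in the authors' deposited table. Of the 15 family genes with a row, 11 were called, all negative, and 4 were not, where the 10 described genes enter by choice.

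Of the uncalled family genes with a promoter entry, Tgtp1 and Gm12250 hold both an ISRE and a GAS core, as Gbp7, Igtp and Irgm2 do, and Irgq holds 0 of either. The stretches of Tgtp1 and Gm12250 are shown to set beside those above, and neither holds the longer ISRE form.
Tgtp1, chr11:48992247-48992396, minus strand: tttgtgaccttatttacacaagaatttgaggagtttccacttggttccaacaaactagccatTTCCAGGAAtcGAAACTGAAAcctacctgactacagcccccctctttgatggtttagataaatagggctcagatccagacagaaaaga
Gm12250, chr11:58183693-58183842, plus strand: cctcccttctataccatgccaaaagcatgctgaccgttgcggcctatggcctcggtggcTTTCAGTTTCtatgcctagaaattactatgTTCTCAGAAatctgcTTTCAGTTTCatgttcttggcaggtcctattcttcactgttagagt
The Tgtp1 stretch shares an unbroken run of 20 bases, aaactagccatttccaggaa, with Irgm2, and its GAS and ISRE cores are also 2 bases apart. Gm12250 holds 2 ISRE cores with a GAS core between them. Leaving out all GBP and IRG genes, an ISRE core was present in 4.09% of the 2029 genes called negative, 3.68% of the 1740 called positive and 3.03% of the 7728 not called in the authors' deposited table.

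The genes lie in 4 clusters, ordered here by GENCODE M21 (GRCm38). On chromosome 3 the order is Gbp5, Gbp7, Gbp3, Gbp2b and Gbp2, with Gbp5 not analysed here. The nearest genes with a row beyond Gbp2 are Kyat3, at 0.48 ± 0.14 (SE), and Gtf2b, at 0.044 ± 0.17 (SE) in the authors' deposited table. On the other side Pdlim5 stood at -0.28 and Bmpr1b at -3.44, with standard errors of 0.10 and 0.54 in the authors' deposited table. Values below -6 were found in the 4 GBP genes and in 0 of the 4 flanking genes. Among these flanking genes, Bmpr1b, a BMP receptor, and Pdlim5 were called negative too, Kyat3 was called positive and Gtf2b was not called.

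On chromosome 5 the flanking genes differed by side. Zfp951 and Abcg3 stood at 4.65 and 1.57 in the authors' deposited table, and Lrrc8b and Lrrc8c, subunits of volume-regulated anion channels, at -1.06 and -2.33. The value of Lrrc8c lay between those of Gbp9 and Gbp4. In the Irgm1 cluster, Psme2b, the nearest gene with a row on that side of Irgm1, stood at -1.62 ± 0.34 (SE) in the authors' deposited table. Before Irgm1, Trim7 and Gm16170 stood at -0.60 ± 0.31 (SE) and -0.62 ± 0.63 (SE) in the authors' deposited table, and neither was called. Beyond the far end of that cluster, Zfp62 stood at 0.023 ± 0.11 (SE) and Mgat1, which was called negative, at -0.58 ± 0.12 (SE) in the authors' deposited table. Around Gm12250, Igtp and Irgm2, the uncalled genes Gemin5, Mrpl22 and Zfp692 stood at 0.19, 0.19 and 0.17 in the authors' deposited table, while Zfp672 was called negative at -0.68 ± 0.26 (SE). Of the 16 flanking genes in all, 6 were called negative, 2 positive and 8 were not called in the authors' deposited table. Over all genes 15.9% were called negative and 14.6% positive.

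**Figure D4:**
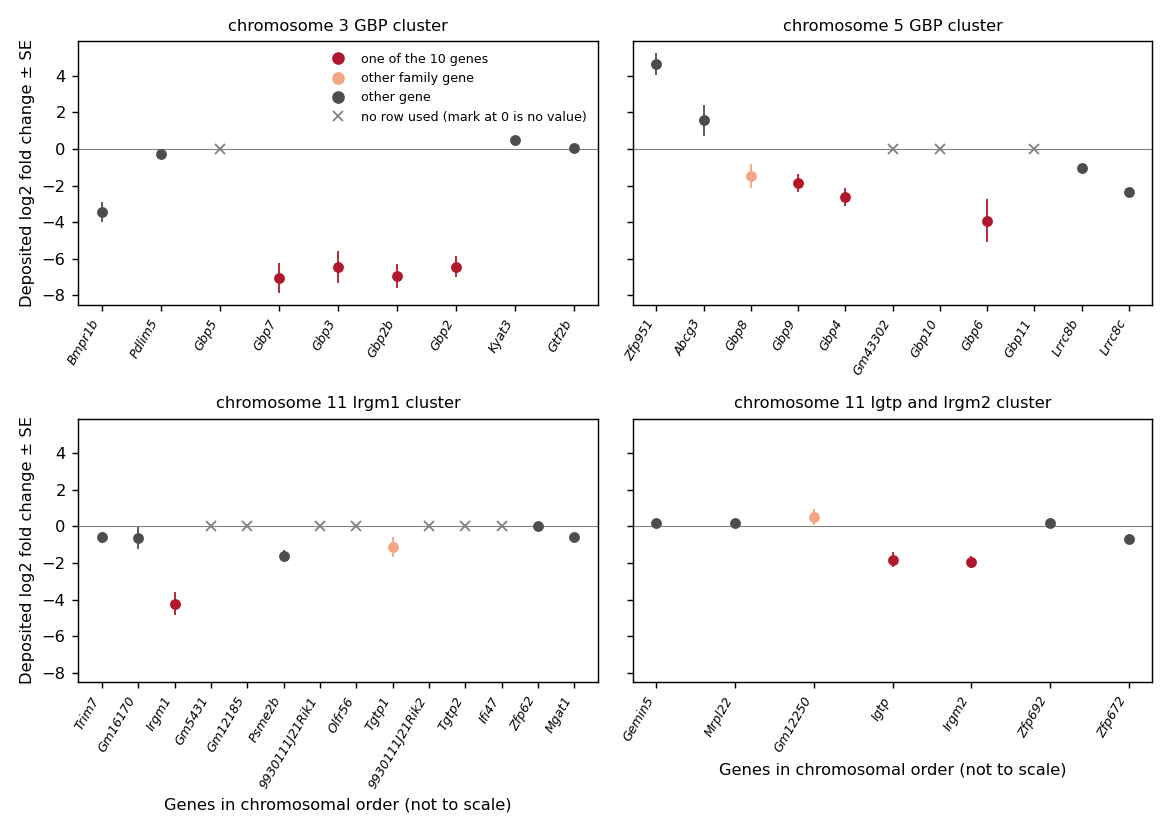
Deposited log2 fold change with its standard error for genes in chromosomal order (not to scale) in 4 clusters with up to 2 flanking genes on each side; crosses mark genes with no row used and carry no value. The 4 chromosome 3 GBP genes lie below -6, between Pdlim5 at -0.28 and Kyat3 at 0.48.

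Upstream of these GTPases, the interferon receptors, kinases, Stat and Irf factors were mixed. Of 21 genes with a row among 25 listed, 8 were called negative, 3 positive and 10 were not called in the authors' deposited table. The share called negative was 38.1%, beside 15.9% of all genes, and 14.6% of all genes were called positive. The median log2 fold change was -0.29. Irf1, the activator that binds ISRE sequences, was lower at -1.69 ± 0.25 (SE) (DESeq2 adjusted p-value 2.08e-10), from a mean normalized count of 1442 in the authors' deposited table. Ifngr1, the ligand-binding chain of the interferon gamma receptor, was lower at -1.29 ± 0.20 (SE) (DESeq2 adjusted p-value 3.22e-09) in the authors' deposited table. Its kinase Jak2 was lower at -1.64 ± 0.26 (SE) (DESeq2 adjusted p-value 6.99e-09), whereas Tyk2, which serves type I receptors, was higher at 0.56 ± 0.092 (SE) (DESeq2 adjusted p-value 1.83e-08) in the authors' deposited table. None of the 10 listed interferon genes had a row, and they were not analysed here.

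Antigen presentation genes, which interferon gamma induces along with the GTPases, were lower almost throughout. Of 16 genes, 15 were called negative and 0 positive in the authors' deposited table, beside 15.9% and 14.6% of all genes. The median log2 fold change was -1.85 against 0.0097 over all genes. Psmb8, an immunoproteasome subunit, stood at -6.73 ± 0.64 (SE) (DESeq2 adjusted p-value 4.39e-24) in the authors' deposited table, in the range of the chromosome 3 GBP genes. The peptide transporter subunit Tap2 stood at -4.83 and the peptide-trimming enzyme Erap1 at -3.30, with standard errors of 0.46 and 0.35 in the authors' deposited table. The class I heavy chain H2-K1 stood at -1.67 ± 0.19 (SE) in the authors' deposited table. H2-T23, with a mean normalized count of 6.56, was the one gene of the list not called in the authors' deposited table.

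Antiviral effectors shared by type I interferon did not follow one direction. Of 25 genes with a row among 31 listed, 6 were called negative, 8 positive and 11 were not called in the authors' deposited table. The share called negative was 24%, beside 15.9% of all genes, and 14.6% of all genes were called positive. The median log2 fold change was 0.10. Oasl2, an oligoadenylate synthetase-like protein, stood at -5.06 ± 0.54 (SE), while its relative Oas2 stood at 2.54 ± 0.35 (SE) in the authors' deposited table. The membrane proteins Ifitm1 and Ifitm2 were higher, at 0.86 and 0.91 with standard errors of 0.085 and 0.097 in the authors' deposited table. Isg15 and Ifih1 were the lowest, at -7.83 ± 1.15 (SE) and -7.78 ± 1.35 (SE), below the chromosome 3 GBP genes. Mx2 and Rtp4 followed at -6.65 and -5.44 in the authors' deposited table. The implied means of Isg15 and Ifih1 in the lower group were 0.68 and 0.37, so the size of these values rests on few reads.

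Of 15 genes for autophagy-type conjugation and ubiquitin, through which GTPases are loaded on vacuoles, 3 (20%) were called negative and 1 positive in the authors' deposited table. Their median was 0.0065. Over all genes 15.9% were called negative and 14.6% positive, so the counts of this list are not read as a result about it. Gabarapl1 and Gabarapl2, which guide GBP and IRG proteins away from the cell's own membranes, were called in opposite directions, at -0.93 ± 0.14 (SE) and 0.79 ± 0.11 (SE) in the authors' deposited table. Of 5 inflammasome genes with a row, 2 were called negative and 2 positive in the authors' deposited table. The DNA sensor Aim2 stood at 1.69 and the adaptor Pycard at 1.14, while Gsdme stood at -0.60 and Ninj1 at -0.91 in the authors' deposited table. Of 8 enzymes that attach or trim the lipid anchors of these proteins, 1 was called negative (12.5%) and 1 positive, near the shares of all genes. Fntb, a farnesyltransferase subunit, stood at 0.45 and the myristoyltransferase Nmt2 at -0.23 in the authors' deposited table.

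**Figure D5:**
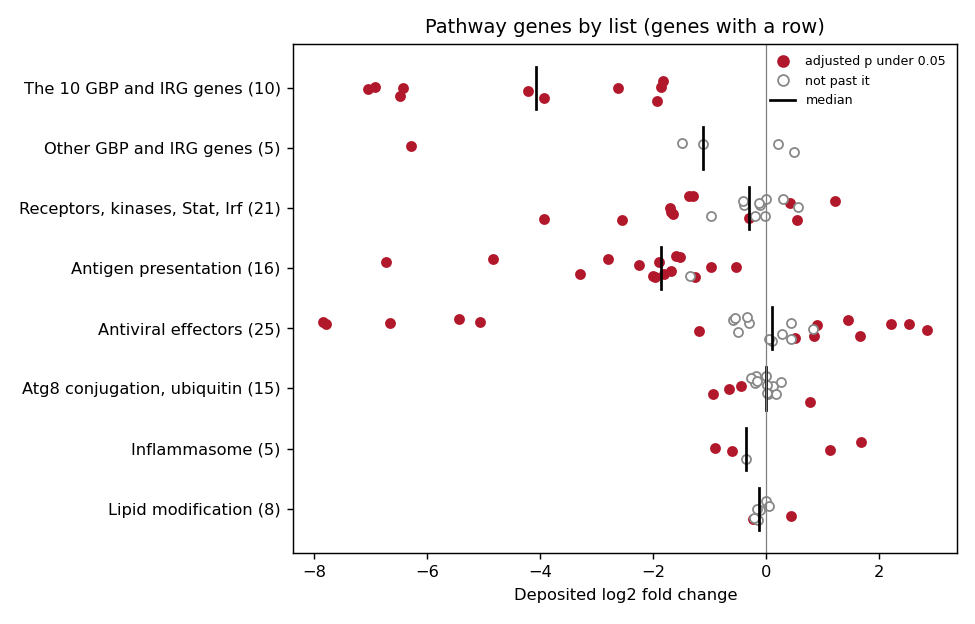
Deposited log2 fold changes of the 10 GBP and IRG genes and of 7 pathway lists, with the number of genes with a row in parentheses, filled where the deposited adjusted p-value is under 0.05, and a black bar at each median. The antigen presentation genes lie wholly below 0, with a median of -1.85, while the antiviral effectors spread from -7.83 to 2.86.

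Markers of cell identity were also called, where 15.9% of all genes were called negative and 14.6% positive. Of 14 embryonic stem cell markers with a row among 15 listed, 9 were called positive and 1, Dppa3, negative in the authors' deposited table, and Pou5f1 had a mean normalized count of 32810. Of 14 fibroblast markers, 10 had a row, 6 were called negative and 0 positive, with Tagln at -5.96 and Twist1 at -2.54 in the authors' deposited table. The summed mean counts of the fibroblast list implied 8338 in the reference group and 5025 in the other. Without Tagln, left out after its values were seen, they implied 4699 and 4966, the other direction. Most of that second sum was Vim, with implied means of 4097 and 4701. By the authors' deposited table, 5 of the 9 markers left were still called negative and 0 positive. The middle value of these 9 fold changes was -1.43 on the log2 scale. Vim, the most abundant fibroblast marker, had a mean count of 4399 and stood at 0.20 ± 0.23 (SE) in the authors' deposited table, and Thy1 stood at 0.34 ± 0.43 (SE), both uncalled. The collagen genes Col1a1 and Col1a2 had mean counts of 20.9 and 10.1 in the authors' deposited table. Of 12 leukocyte and macrophage markers, 4 had a row, with 3 called positive and 1 negative, in the authors' deposited table, and Ptprc, the pan-leukocyte marker, had no row used here. Of 33 symbols listed for the two-cell stage 7 had a row, and 3 of these (Calcoco2, Dppa2 and Dppa4) were called positive in the authors' deposited table. Dppa2 and Dppa4 are not markers of that stage alone, and had mean counts of 3074 and 4472 here. The part of these shifts in the values of the GBP and IRG genes was not tested.

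Shared sequence between family members touches a few of these values. In GENCODE M21 transcripts, 43.4% of the 150-base windows of Gbp6 occur in another gene, mostly Gm43302, and for Tgtp1 the share was 74.1%, mostly Tgtp2. For Gbp7 it was 8.93%, for Igtp 0.854% and for Gbp4 0.0456%. The other 6 of the 10 genes, Gbp2, Gbp2b, Gbp3, Gbp9, Irgm1 and Irgm2, had 0 shared windows of that length. With windows of 75 bases the share rose to 55.2% for Gbp6, 11.4% for Gbp7 and 8.37% for Igtp. It was then 5.35% for Gbp4, 4.28% for Irgm2, 3.76% for Gbp9 and 2.68% for Gbp3. For Gbp2 and Gbp2b it was 0.983% and 0.873%, and for Irgm1 it stayed at 0. The counts of Gbp6 and Tgtp1 are therefore uncertain as to which copy they come from.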

How the data were processed

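RNA from 6 samples, 3 per sorted group, was compared by the authors. Per the submitters' processing notes, the build was GRCm39 and the tools were FastQC 0.12.1, Trimmomatic 0.39, STAR 2.7.11b, RSEM 1.3.3 and DESeq2 1.45.3; their roles, the model formula and the reference group are not given in the sources used here. Per the file headers, the authors deposited for each gene a mean normalized count (a signal averaged over all libraries), a log2 fold change with its standard error, a Wald statistic (a score), a p-value and an adjusted p-value. The statistic differed by at most 5.77e-07 from the fold change divided by its error. The 6 columns of the count table carry run and barcode numbers that match no label and were not used; only gene IDs were read there, and edgeR was not run.

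Genes were called at a deposited adjusted p-value under 0.05. Group means were computed from the deposited mean and fold change for groups of equal size, and 95% intervals from the standard error. RefSeq promoters (GRCm38.p6) and GENCODE M21 transcripts (GRCm38) gave motifs, gene order and shared windows; these builds differ from that of the authors. Protein sequences were not used here. Scripts ran in Python 3.11.15 with pandas 2.3.3 and scipy 1.17.1, and the adjustment and motif search were tested on simulated data.

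The 10 genes and all gene lists were chosen with earlier results of these data known. Named were the 10 genes, other family genes with a row, up to 4 genes of smallest p-value per list, and the nearest 2 genes with a row on each side of a cluster. H2-T23, Psme2b, Isg15, Ifih1, Mx2, Rtp4, Pou5f1, Dppa3, Vim, Thy1, Col1a1 and the genes named in the closing section were chosen after their values were seen. Replicate dates were not compared, because no value belongs to a sample. A withheld item is not reported here.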

Additional observations from a re-analysis of the deposited data

How the results depend on the processing

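All 10 genes stayed called and negative at an adjusted p-value of 0.01, at an absolute log2 fold change over 1, with the adjustment recomputed and after centring on the median of all genes (0.0097), and 8 of 10 were left at a mean count of at least 50. The genes were picked on these same fold changes, so this outcome is a description and no support for them. Their 20 fold changes after centring on all genes or on 79 ribosomal protein genes (median 0.093) moved by less than 1 standard error. An absolute log2 fold change over 1 left 1315 negative and 957 positive genes, 1 positive receptor or factor, 5 positive antiviral effectors, 3 positive and 0 negative stem cell markers, and 0 negative leukocyte markers. The same limit left 0 calls of either sign among conjugation genes and lipid enzymes and 0 negative inflammasome genes. A mean count of at least 50 left 4 negative receptors or factors, 3 negative antiviral effectors and 0 other family genes, since Iigp1 is below it. At an adjusted p-value of 0.01, 0 lipid enzymes and 0 leukocyte markers were negative. The stricter ISRE core was found in 4 of 7 promoters. These stricter limits themselves lower the counts. No paired analysis was possible because no count column names its replicate or sample. For the same reason other normalizations, count filters and leaving out replicates were not run, so whether 1 library decides a value is not known.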

Other observations

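The longer ISRE core (GAAA, any 2 bases, GAAACT), present in 4 of the 7 GBP and IRGM promoters, marked 29 other genes of the authors' deposited table. Of the 29, 8 were called negative, 6 positive and 15 were not called in the authors' deposited table, and their median was -0.10 on the log2 scale. These are 27.6% negative and 20.7% positive, beside 15.9% and 14.6% of all genes, with or without a promoter entry. Among genes with an entry, leaving out all GBP and IRG genes, 2029 were called negative, 1740 positive and 7728 were not called. H2-T22, a class I gene, stood at -2.57 ± 0.28 (SE) and Eomes, a T-box factor, at -2.22 ± 0.33 (SE) in the authors' deposited table. On the other side Slfn9 stood at 2.39 ± 0.19 (SE), Oas1g at 2.22 ± 0.38 (SE) and the cytidine deaminase gene Apobec3 at 0.82 ± 0.088 (SE) in the authors' deposited table. Of 52 other genes with both an ISRE and a GAS core, 9 were called negative and 9 positive in the authors' deposited table, or 17.3% each, near the shares of all genes.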
